A study of Mus musculus with 2 samples.

Results

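Mast cell genes were followed in the dorsal root ganglia of mice with experimentally dried skin. The 9 genes were taken by symbol from the 23282 rows of the count tables and encode the granule proteases Tpsab1, Tpsb2, Cma1, Mcpt4 and Cpa3, the histamine-forming enzyme Hdc, and the receptors Kit, Ms4a2 and Fcer1a. All 9 had a row. Transcripts were sequenced in 2 libraries from wild-type mice. The AEW library came from mice whose skin received acetone, ether and then water (AEW) daily for 5 days, which models the itch of dry skin. The control library came from mice given water. Ganglia were collected on day 6, and each group's RNA was pooled from 6 mice, taken here to mean 1 pool per library. Both groups carried the same wild-type genotype, and no strain, sex or age is stated.

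Mast cells are tissue-resident cells of haematopoietic origin that lie along vessels and nerves, including the connective tissue around ganglia. Their granules hold histamine, heparin and serine proteases of tryptase and chymase type together with carboxypeptidase A3. Binding of antigen to IgE on the high-affinity IgE receptor empties the granules, and mediators released in this way act on nearby sensory endings. Growth and survival of mast cells depend on KIT, the receptor of stem cell factor.

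With 1 library per group no difference has a replicate check, and an effect of treatment and a difference between the pools or their preparation cannot be told apart. The AEW library held 14376228 counts and the control library 9333882 counts, and levels are given as CPM, the count per 1000000 counts, after TMM scaling. Each AEW to control ratio has an exact 95% interval that covers counting error only. Genes with 20 or more counts over both libraries were taken as measured. A call of lower or higher needed a 1.5-fold difference and an interval that left out 1. In bulk tissue, fewer cells of a type and less RNA per cell cannot be told apart. The labels name neurons as the cell type, but markers of other cells were present in both libraries. A list of 10 Schwann and satellite glia markers summed to 20395 CPM in the AEW library and 23309 CPM in the control library. A list of 16 neuron markers summed to 15204 CPM in the AEW library and 9804 CPM in the control library.

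Granule proteases and Hdc were lower in the AEW library, whereas Kit was not. Of the 9 genes, 7 were measured, and 6 of these were called lower, 0 higher and 1 neither, against 14.9% called lower and 17.3% called higher among all 14854 measured genes. Tested at 2-fold, 5 of the 7 were lower, against 6.85% of all measured genes. The median log2 ratio was -1.31 over the 7 genes and 0.03 over all measured genes. The counts of the 9 genes summed to 1014 in the AEW library and 1455 in the control library, a ratio of 0.426 (0.393 to 0.462). Without Kit, the other 8 genes summed to 724 counts in the AEW library and 1303 in the control library, or 48.9 CPM against 144 CPM, which is 2.95-fold lower (2.69 to 3.23).

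**Figure D1:**
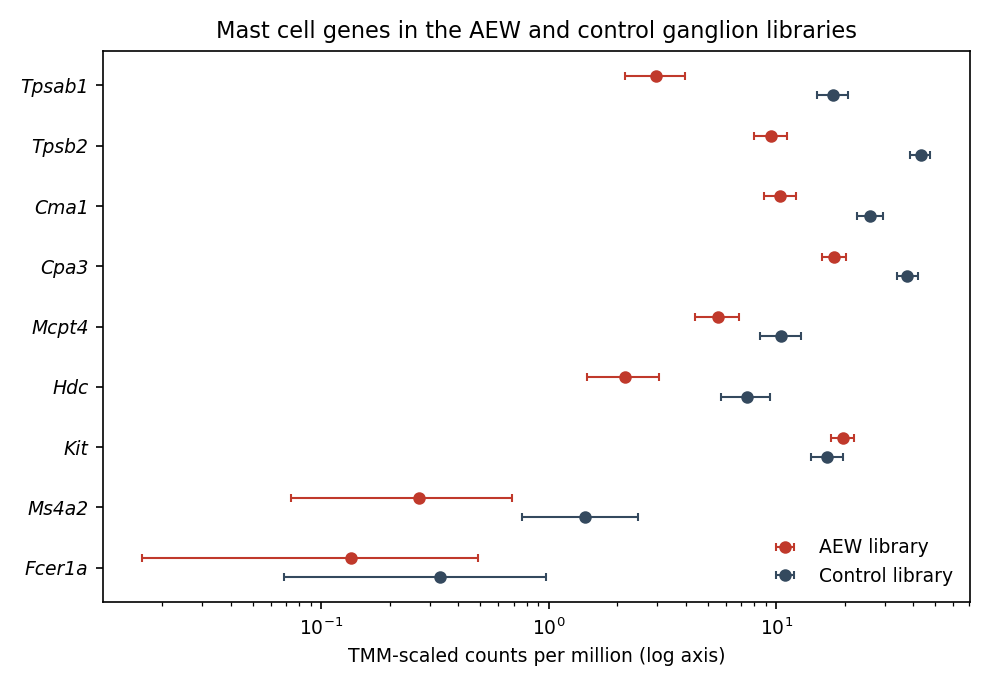
TMM-scaled CPM (log axis) of the 9 mast cell genes in the AEW library and the control library, with exact 95% Poisson intervals that cover counting error only. The intervals of the 2 libraries lie apart for the 5 proteases, Hdc and Ms4a2, and overlap for Kit and Fcer1a.

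The tryptases stood lowest. Tpsb2, the main tryptase stored in granules of connective tissue mast cells (ENSMUSG00000033825.10, mm10 chromosome 17, 25366305 to 25369098, plus strand), had 140 counts in the AEW library and 390 in the control library, or 9.45 CPM against 43.1 CPM. Tpsab1, a second tryptase gene (ENSMUSG00000024173.11, on the minus strand of chromosome 17 from 25343245 to 25345562), had 44 counts in the AEW library and 160 in the control library, or 2.97 CPM against 17.7 CPM. The AEW level lay below the control level for both genes, and the count intervals did not meet. Only 0.380% of measured genes with counts in both libraries had a lower ratio than Tpsab1, and 0.707% had a lower ratio than Tpsb2. Summed, the tryptases were 4.89-fold lower (4.13 to 5.81) in the AEW library. Both were also called lower on each other scale tried, including scales set on fibroblast or macrophage markers. The best-matching annotated transcripts of the pair were identical at 77.4% of 990 aligned bases and no 50-base stretch was shared. The sources used here do not say how multiply mapped reads were treated, and an exchange of reads between the pair was not tested.

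The chymases and carboxypeptidase were lower by a smaller factor. Cma1, a chymase of connective tissue mast cells (ENSMUSG00000022225.7, on the minus strand of chromosome 14 from 55941451 to 55944675), had 154 counts in the AEW library and 234 in the control library, or 10.4 CPM against 25.8 CPM, a ratio of 0.402 (0.326 to 0.495). Mcpt4, a chymase that cleaves angiotensin I (ENSMUSG00000061068.7, on the minus strand of chromosome 14 from 56059629 to 56062313), had 82 counts in the AEW library and 95 in the control library, or 5.53 CPM against 10.5 CPM, a ratio of 0.527 (0.388 to 0.716). Cpa3, the carboxypeptidase that trims peptides in the granule (ENSMUSG00000001865.2, on the minus strand of chromosome 3 from 20215620 to 20242181), had 266 counts in the AEW library and 341 in the control library, or 17.9 CPM against 37.7 CPM, a ratio of 0.477 (0.404 to 0.561). All 3 were called lower on TMM scaling, but when the libraries were scaled on macrophage markers the log2 ratio turned to 0.078 for Cma1, 0.47 for Mcpt4 and 0.32 for Cpa3. On fibroblast scaling Mcpt4 turned to 0.12, while Cma1 and Cpa3 stayed below 0 without a call. Mcpt4 missed the call at 2-fold.

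The proteases did not move by a single factor. Relative to the summed chymases, the summed tryptases were a further 2.14-fold lower (1.68 to 2.74), a ratio of ratios that does not depend on library scaling. Of the 10 pairs of proteases, 6 had a ratio of ratios whose 95% interval excluded 1, and each of these set a tryptase against Cma1, Mcpt4 or Cpa3. Tpsab1 and Tpsb2 did not separate from each other, with a ratio of ratios of 0.766 (0.508 to 1.14). Cma1 and Mcpt4 did not either, at 0.762 (0.524 to 1.11). As a share of the counts of the 5 proteases, Tpsb2 made up 20.4% (17.5 to 23.6) in the AEW library and 32.0% (29.4 to 34.7) in the control library by the exact Clopper-Pearson interval. Cpa3 made up 38.8% (35.1 to 42.5) in the AEW library and 28.0% (25.4 to 30.6) in the control library.

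**Figure D2:**
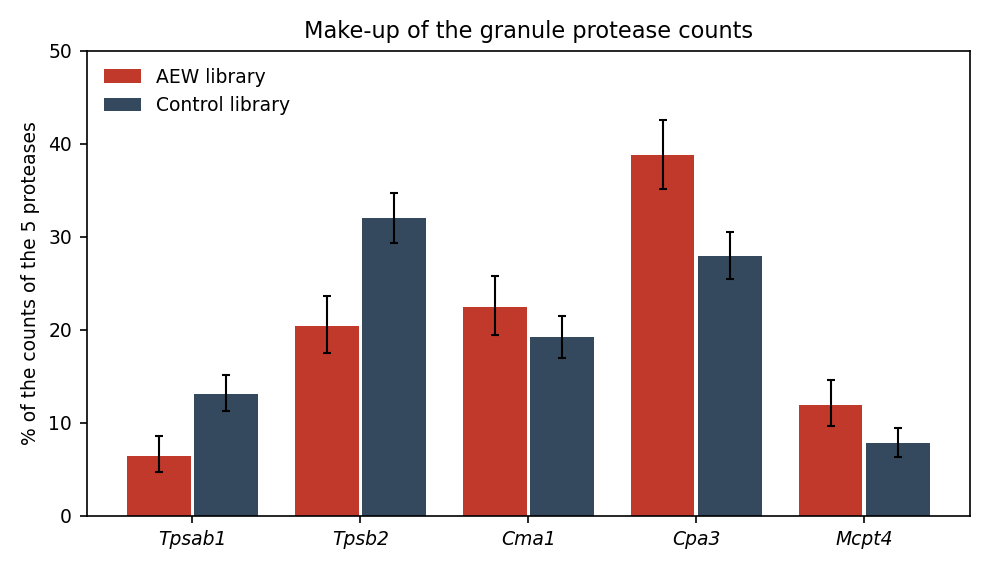
Share of each granule protease in the summed counts of the 5 proteases, in percent, for the AEW library (686 counts) and the control library (1220 counts), with exact 95% binomial intervals. Tpsab1 and Tpsb2 took a smaller share in the AEW library than in the control library, and Cpa3 and Mcpt4 a larger share.

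Levels were also ordered per kilobase of annotated exon sequence, on the CPM scale. This order holds only if reads came from the whole transcript. The sources used here name a Lexogen Quant-Seq kit and do not say so. If reads came from transcript ends, the order on CPM without division by length applies instead. In the AEW library Cpa3 led at 11.8 CPM per kilobase (10.5 to 13.3), followed by Cma1 at 9.53 (8.09 to 11.2), Tpsb2 at 5.93 (4.99 to 6.99) and Mcpt4 at 4.99 (3.97 to 6.20). Kit followed at 2.20 (1.95 to 2.46) and Tpsab1 at 1.42 (1.03 to 1.90). In the control library Tpsb2 stood first at 27.0 CPM per kilobase (24.4 to 29.8), and its interval overlapped those of Cpa3 at 24.8 (22.3 to 27.6) and Cma1 at 23.7 (20.8 to 27.0). Mcpt4 at 9.47 (7.66 to 11.6) and Tpsab1 at 8.44 (7.18 to 9.85) were next and did not separate from each other. Per kilobase, Tpsb2 thus shared the top 3 places in the control library and lay below Cpa3 and Cma1 in the AEW library. On CPM without division by length the order against Cma1 differed. In the AEW library Tpsb2 at 9.45 CPM (7.95 to 11.1) overlapped Cma1 at 10.4 CPM (8.81 to 12.2) and lay below Cpa3 at 17.9 CPM (15.9 to 20.2). In the control library Tpsb2 at 43.1 CPM (38.9 to 47.6) lay above Cma1 at 25.8 CPM (22.6 to 29.4) and overlapped Cpa3 at 37.7 CPM (33.8 to 41.9).

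Hdc, which makes histamine from histidine (ENSMUSG00000027360.5, on the minus strand of chromosome 2 from 126593667 to 126619299), had 32 counts in the AEW library and 67 in the control library, or 2.16 CPM against 7.40 CPM. It was called lower, 3.43-fold (2.22 to 5.40), with a log2 ratio below 0 on all scales tried but no call on macrophage scaling. Its ratio was below those of Cpa3 and Mcpt4 beyond counting error, since Cpa3 relative to Hdc stood at 1.63 (1.02 to 2.65) and Mcpt4 relative to Hdc at 1.81 (1.05 to 3.14). From either tryptase it did not separate, with intervals of 0.326 to 1.03 for Tpsab1 relative to Hdc and 0.464 to 1.24 for Tpsb2 relative to Hdc. Hdc is also made by basophils and some neutrophils, and neutrophil markers were lower too, as given below. The part of these cells in the Hdc counts was not tested.

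Kit, the stem cell factor receptor, went apart from the other members. The gene (ENSMUSG00000005672.12, chromosome 5, 75574916 to 75656722, plus strand) had 290 counts in the AEW library and 152 in the control library, or 19.6 CPM against 16.8 CPM. Its ratio of 1.17 (0.955 to 1.43) was not called, and its log2 ratio of 0.22 turned to -0.41 when the libraries were scaled on neuron markers. Relative to the 5 summed proteases, Kit was 3.39-fold higher (2.72 to 4.25) in the AEW library. Of the 8 pairs of Kit with another member, 7 had an interval that excluded 1, the exception being Fcer1a. Kit is also expressed by melanocytes and by some sensory neurons. The 16 neuron markers were at 1.55 times the control level (1.54 to 1.56), with 8 called higher (50%, against 17.3% of all measured genes) and 0 lower. Melanocyte markers other than Sox10, which glia share, had 989 counts in the AEW library and 515 in the control library, a ratio of 1.17 (1.05 to 1.31). The melanocyte enzyme Dct had 287 of these counts in the AEW library and 0 in the control library. Without Dct the ratio was 0.833 (0.742 to 0.935), and Pmel, the marker with the most counts after Sox10, stood at 0.749 (0.657 to 0.854). Their part in the Kit count was not tested.

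**Figure D3:**
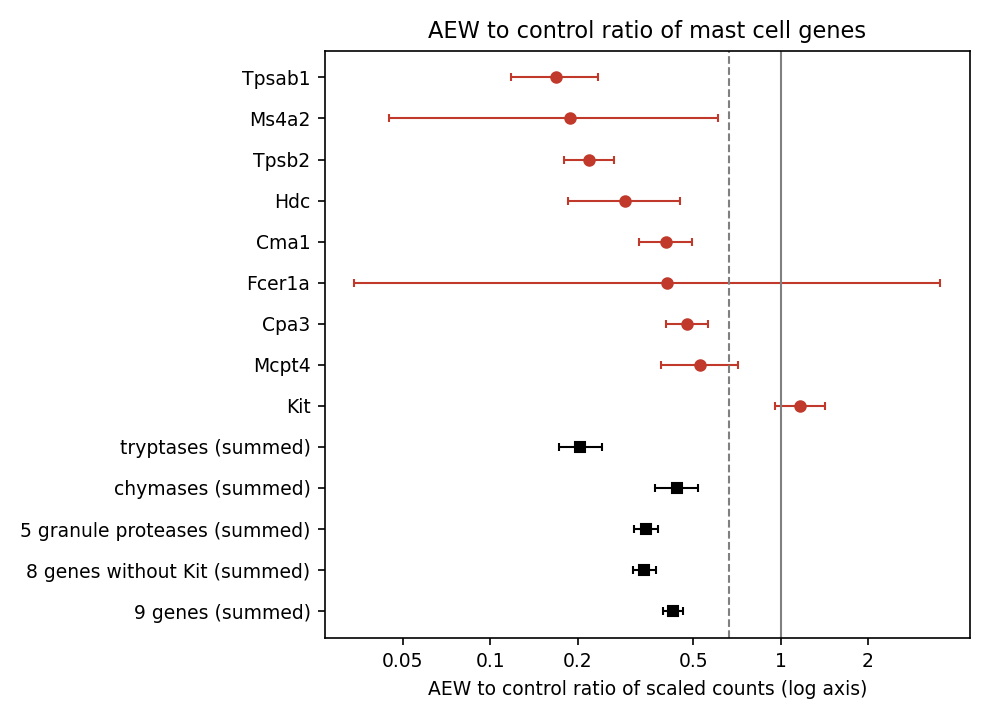
AEW to control ratio of scaled counts (log axis) of each mast cell gene (circles) and of summed sets (squares), with exact 95% counting intervals, the solid line at 1 and the dashed line at the call threshold below it. All ratios shown are on TMM scaling. The tryptases, Hdc and Ms4a2 lie furthest below 1, and Kit lies above 1 with an interval that includes 1. Other scales are not shown. Cma1, Cpa3, Mcpt4 and Fcer1a turn above 1 on macrophage scaling, and Mcpt4 also on fibroblast scaling. Kit turns below 1 on neuron scaling.

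The chains of the IgE receptor were scarcely detected. Ms4a2, the beta chain (ENSMUSG00000024680.12, on the minus strand of chromosome 19 from 11615523 to 11623719), had 4 counts in the AEW library and 13 in the control library, too few to be measured. Its ratio was 0.188 (0.0446 to 0.608), and it was called lower when the filter on low counts was dropped. Fcer1a, the alpha chain that binds IgE (ENSMUSG00000005339.10, on the minus strand of chromosome 1 from 173221284 to 173227214), had 2 counts in the AEW library and 3 in the control library, a ratio of 0.407 (0.0340 to 3.56) that shows no difference at this depth. Fcer1g, the gamma chain, which macrophages and other myeloid cells also use, had 261 counts in the AEW library and 444 in the control library and was 2.78-fold lower (2.38 to 3.26).

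**Figure D4:**
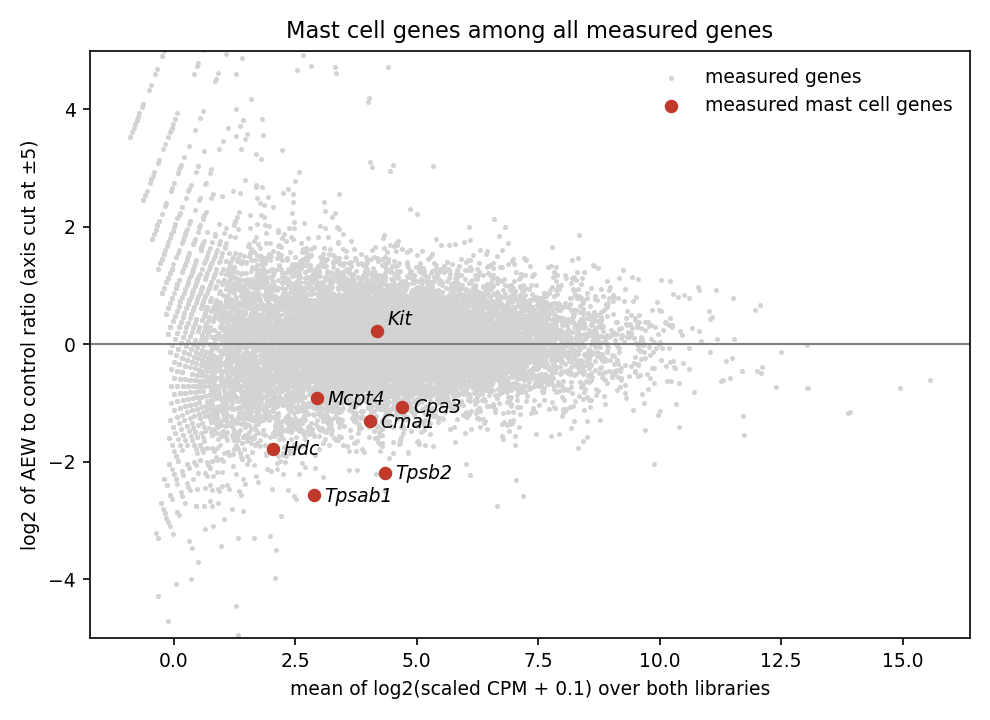
Log2 of the AEW to control ratio against mean abundance for measured genes (grey) and the 7 measured mast cell genes (red), cut at 5 on either side, which leaves out 71 genes, and without the 136 genes at 0 in 1 library. Tpsab1 and Tpsb2 lie at the lower edge of the genes of like abundance, and Kit lies among the bulk.

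Distance from genes of like abundance was also measured. The log2 ratio of Tpsb2 lay 4.21 scaled median absolute deviations below the median of the 500 measured genes nearest in mean abundance, and that of Tpsab1 3.95. For Cma1 the distance was 2.84, for Cpa3 2.08, for Hdc 2.04 and for Mcpt4 1.46. When a distance of over 3 was required as well, 2 of the 7 measured members stayed called lower, both tryptases, against 0.491% of all measured genes.

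Promoter sequences are shown for Cpa3, Mcpt4 and Ms4a2, whose windows hold a motif searched, and for Cma1 and Kit, whose windows as shown hold none. A member that was lower and a member that was not can so be read beside them. The windows run from 250 bases before to 50 bases after the annotated start, 5′ to 3′ on the gene's strand, and were taken from RefSeq on GRCm38.p6, the same assembly as mm10, with entries for 7 of the 9 members. Capitals mark AGATAA or TGATAA on either strand, letters bound by GATA factors such as GATA2, a regulator of mast cell genes.
Cpa3, chr3:20242132-20242431, minus strand: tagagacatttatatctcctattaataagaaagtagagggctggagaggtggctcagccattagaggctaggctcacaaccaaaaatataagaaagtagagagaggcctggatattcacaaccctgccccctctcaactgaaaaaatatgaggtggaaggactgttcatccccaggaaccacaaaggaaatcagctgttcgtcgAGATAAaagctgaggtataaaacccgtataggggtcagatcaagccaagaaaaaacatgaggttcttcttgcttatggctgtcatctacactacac
Mcpt4, chr14:56062261-56062560, minus strand: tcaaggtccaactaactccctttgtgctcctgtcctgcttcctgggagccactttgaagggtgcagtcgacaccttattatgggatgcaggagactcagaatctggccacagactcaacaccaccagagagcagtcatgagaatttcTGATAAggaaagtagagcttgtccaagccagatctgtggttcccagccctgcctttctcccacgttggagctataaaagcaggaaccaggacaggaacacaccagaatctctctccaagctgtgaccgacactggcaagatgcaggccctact
Ms4a2, chr19:11623670-11623969, minus strand: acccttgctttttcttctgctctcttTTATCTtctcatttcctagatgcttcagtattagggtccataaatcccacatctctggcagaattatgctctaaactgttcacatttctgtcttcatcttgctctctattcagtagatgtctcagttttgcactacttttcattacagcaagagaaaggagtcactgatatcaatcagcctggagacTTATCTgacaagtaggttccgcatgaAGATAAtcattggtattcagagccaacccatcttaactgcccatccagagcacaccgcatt
Cma1, chr14:55944626-55944925, minus strand: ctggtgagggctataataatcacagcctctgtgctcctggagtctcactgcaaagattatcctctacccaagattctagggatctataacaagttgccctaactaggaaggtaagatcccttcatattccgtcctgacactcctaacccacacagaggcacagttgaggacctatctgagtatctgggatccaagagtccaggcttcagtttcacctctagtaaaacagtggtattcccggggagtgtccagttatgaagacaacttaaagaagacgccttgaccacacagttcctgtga
Kit, chr5:75574737-75575036, plus strand: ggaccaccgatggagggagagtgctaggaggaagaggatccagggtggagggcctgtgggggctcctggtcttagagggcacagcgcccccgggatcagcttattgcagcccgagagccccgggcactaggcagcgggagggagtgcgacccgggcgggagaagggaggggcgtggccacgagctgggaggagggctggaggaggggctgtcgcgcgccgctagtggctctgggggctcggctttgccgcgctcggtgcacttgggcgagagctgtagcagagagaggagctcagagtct

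AGATAA or TGATAA, searched on both strands, was present in the windows of 4 of the 7 members, Cpa3, Mcpt4, Ms4a2 and Fcer1a, and in 18.6% of all 32851 windows of the same length. The match in Cpa3 began 46 bases before the start and that in Mcpt4 103 bases before it. Ms4a2 held 3 matches, which began 224, 37 and 11 bases before the start. The letters CATGTG, an E-box form bound by MITF, were present in the Fcer1a window alone among the 7, and in 14.2% of all windows. No match of a motif overlapped a match of another. A match is a run of letters and not a shown site, and the windows searched for Cma1, Hdc and Kit hold none of these letters. Kit had 2 windows listed, and only the window shown entered the count over the 7 members.

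Gata2 itself, the haematopoietic factor named above, had 28 counts in the AEW library and 53 in the control library and was 3.10-fold lower (1.92 to 5.09). It belongs to a list of 20 further mast cell genes, of which 10 were measured. Of these 4 were called lower, against 14.9% of all measured genes, and 6 neither, with a median of -0.52 on the log2 scale. Whether the listed genes came from mast cells alone in these libraries was not tested. Il1rl1, the interleukin 33 receptor, had 42 counts in the AEW library and 64 in the control library and was lower. Ctsg, cathepsin G, was lower with 6 counts in the AEW library and 16 in the control library. Srgn, the serglycin core protein that packs granules, was lower with 488 counts in the AEW library and 532 in the control library. Mrgprb2, the receptor through which mast cells answer cationic substances without IgE, had 0 counts in the AEW library and 3 in the control library, too few to be measured. Other listed genes too low to be measured went both ways. In the AEW and control libraries Mrgprb1 had 7 and 0 counts, Enpp3 8 and 1, Tph1 3 and 2, Adora3 6 and 6, and Cyp11a1 1 and 6. The mucosal mast cell proteases Mcpt1 and Mcpt2 had 0 counts in both libraries, which allows up to 0.202 CPM in the AEW library and 0.331 CPM in the control library. Slc18a2, the transporter that loads histamine and other amines, was not called at 119 counts in the AEW library and 58 in the control library. Tpsg1, a membrane tryptase next to Tpsb2, was not called at 151 counts in the AEW library and 66 in the control library, a ratio of 1.40 (1.04 to 1.90). The annotated end of Tpsg1 overlaps Cacna1h on the other strand, so reads of the pair cannot be told apart if strand was not used. Of the other genes not called, Slc29a1 had a ratio of 1.19 (1.02 to 1.39), while Hpgds, Cd63 and Smpx had ratios of 0.695, 0.696 and 0.807.

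Genes of IgE receptor signalling were called lower more often than higher. Of 20 listed genes 19 were measured, with 10 lower (52.6%, against 14.9% of all measured genes), 1 higher (5.26%, against 17.3%) and 8 neither, and the median stood at -0.78 on the log2 scale. Ptpn6, a phosphatase that restrains receptor signals in blood cells, had 77 counts in the AEW library and 132 in the control library and was 2.81-fold lower (2.10 to 3.77). Prkcd, a protein kinase C found in many cells, was the gene called higher, at 1.76-fold (1.61 to 1.91), and Pik3cd had a ratio of 1.25 (1.12 to 1.40) without a call.

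Of 20 genes of the KIT pathway and of mast cell growth, 16 were measured, with 6 lower (37.5%, against 14.9% of all measured genes), 2 higher (12.5%, against 17.3%) and 8 neither and a median of -0.44. Kitl, which encodes stem cell factor, had 375 counts in the AEW library and 430 in the control library and was 1.88-fold lower (1.63 to 2.16). Csf2rb, the shared chain of the interleukin 3 and GM-CSF receptors, was 4.62-fold lower (3.20 to 6.81) and Il33, an alarm cytokine that activates mast cells, 2.59-fold lower (2.20 to 3.06). Runx1 and Grb7 were called higher, Runx1 at 1.60-fold (1.41 to 1.82) and Grb7 with 88 counts in the AEW library and 2 in the control library, a ratio of 26.9 (7.22 to 225).

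Of 24 listed genes for granule assembly and lipid mediators, 21 were measured, with 7 lower (33.3%, against 14.9% of all measured genes), 2 higher (9.52%, against 17.3%) and 12 neither and a median of -0.16. The 7 that were lower were Pla2g4a, Ltc4s, Alox5ap, Ptgs1, Ptges, Alox5 and Vamp8, of which the first 6 form leukotrienes or prostaglandins and the last serves granule release. Ltc4s, leukotriene C4 synthase, had 37 counts in the AEW library and 62 in the control library and was 2.74-fold lower (1.80 to 4.24). Pla2g4a, the phospholipase that frees arachidonic acid, was 3.59-fold lower (2.39 to 5.49). Rab27a, a small GTPase of granule transport, was 1.99-fold higher (1.46 to 2.75) and Ndst1, a heparan sulfate enzyme, 1.55-fold higher (1.41 to 1.72). Ndst2, the enzyme of heparin in mast cells, was not called at a ratio of 0.691 (0.542 to 0.883).

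Receptors and targets of mast cell products were called at shares near those of all measured genes. Of 24 listed, 19 were measured, with 3 lower (15.8%, against 14.9% of all measured genes), 4 higher (21.1%, against 17.3%) and 12 neither and a median of 0.29. F2rl1, the receptor PAR2 that tryptase cleaves, was called higher with 19 counts in the AEW library and 2 in the control library, a ratio of 5.80 (1.40 to 51.4). It is also expressed in epidermis, whose markers were far higher in the AEW library, as given below. The part of epidermis in the F2rl1 counts was not tested. Htr3a, a serotonin-gated channel, was 2.25-fold higher (1.81 to 2.80). The histamine receptor gene Hrh1 was not called, with 65 counts in the AEW library and 41 in the control library. Ednrb, an endothelin receptor on glia, was 2.55-fold lower (2.36 to 2.77) and Cysltr1, a leukotriene receptor, 3.66-fold lower (2.02 to 6.91). Over these 5 lists together, 30 of 85 measured genes were called lower, or 35.3%, against 14.9% of all measured genes, and 9 higher, or 10.6%, against 17.3%, and the median stood at -0.32.

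The 8 members other than Kit were next set against markers of 12 cell types. Relative to 10 of the 12 lists they were lower beyond counting error, and they were higher relative to none of them. The 11 neutrophil markers were closest, with 533 CPM in the AEW library and 1642 CPM in the control library, and the ratio of the 8 members to that list was 1.05 (0.950 to 1.15) times as large in the AEW library. Against the 15 macrophage markers, with 343 CPM in the AEW library and 901 CPM in the control library, it was 0.891 (0.808 to 0.984). Against the 14 fibroblast markers, with 7451 CPM in the AEW library and 15380 CPM in the control library, it was 0.701 (0.639 to 0.768). Against lymphocyte markers the interval of 0.571 to 1.02 included 1. These comparisons depend on leaving Kit out. With Kit, the 9 summed members had a ratio of 0.426, above the macrophage list at 0.381 and the neutrophil list at 0.324. When the libraries were scaled on macrophage markers, the ratio of the 9 summed members was 1.12 (1.03 to 1.21).

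Each of these lists was itself lower, and so was the list of 10 skeletal muscle markers. Its ratio was 0.472 (0.461 to 0.482) and its median -1.31 on the log2 scale, with 8 markers called lower (80%, against 14.9% of all measured genes). All 11 neutrophil markers were measured and 10 were called lower (90.9%, against 14.9% of all measured genes). Camp was among them at 664 counts in the AEW library and 925 in the control library. Of 15 macrophage markers 14 were called lower (93.3%, against 14.9%), and Cd163 was the exception at a ratio of 0.739 (0.576 to 0.951). Of 14 fibroblast markers 8 were called lower (57.1%, against 14.9%) and none higher, with Dpt at a ratio of 1.19 (0.986 to 1.44). Of 7 basophil markers only 3 were measured, with 2 lower (66.7%, against 14.9%), Mcpt8 and Il6ra. The remaining 1, Prss34, was neither, at 15 counts in the AEW library and 8 in the control library. Mcpt8, a protease of basophils, had 4 counts in the AEW library and 17 in the control library, and Cd200r3, a receptor of basophils and mast cells, had 0 counts in the AEW library and 8 in the control library. Basophils share Fcer1a, Ms4a2, Hdc and Cpa3 with mast cells. The part of these cells in the member counts was not tested.

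**Figure D5:**
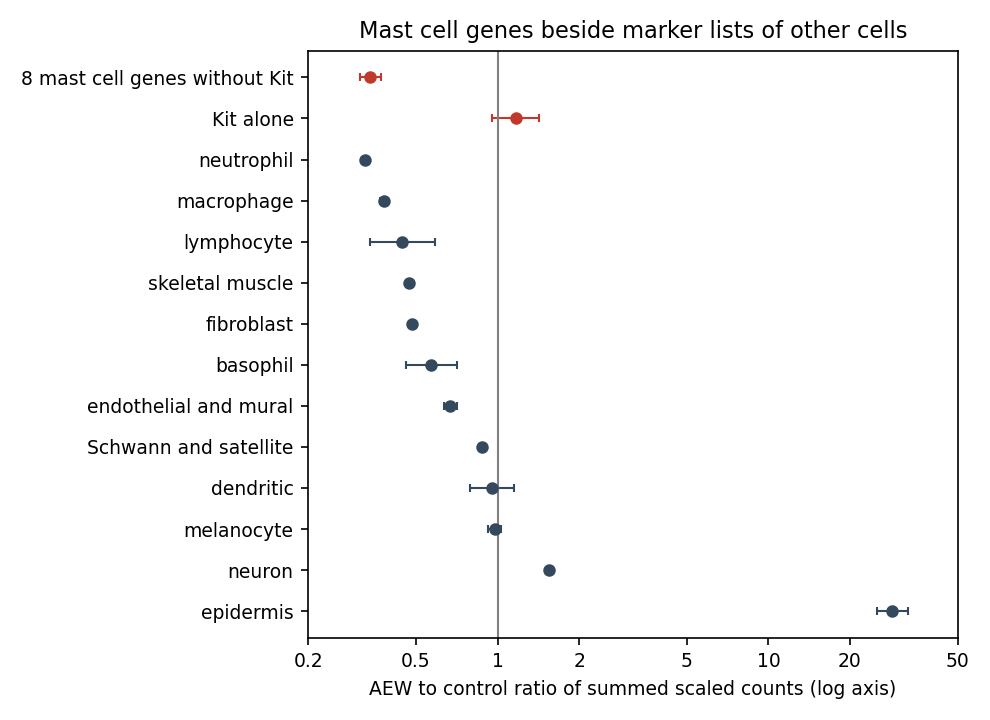
AEW to control ratio of summed scaled counts (log axis, TMM scaling, exact 95% counting intervals) of the 8 mast cell genes without Kit, of Kit, and of marker lists of 12 other cell types. The 8 genes at 0.339 lie between the neutrophil list at 0.324 and the macrophage list at 0.381, and the epidermal list stands at 28.6.

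Epidermal transcripts went the other way. All 10 measured epidermal markers were called higher, against 17.3% of all measured genes. The list had 10733 counts in the AEW library and 229 in the control library, with the keratin gene Krt5 at 1336 counts in the AEW library and 1 in the control library. Skin holds mast cells of its own, and the part of skin RNA in the mast cell counts was not tested.

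With 2 libraries the only shared pattern is the ratio. The 5 listed genes with at least 100 summed counts whose ratio was nearest to that of the 9 summed members were Dcn at 0.427, C1qa at 0.421, C1qc at 0.420, Pdgfra at 0.433 and Kcnj8 at 0.417. Dcn and Pdgfra come from the fibroblast list, C1qa and C1qc from the macrophage list, and Kcnj8 from the list of endothelial and mural cells. The choice depends on Kit, since without Kit the summed ratio was 0.339. Myh4 and Tnni2 of the skeletal muscle list also stood at 0.339.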

How the data were processed

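RNA was extracted with Trizol, and a Lexogen Quant-Seq kit was used on 500 ng of total RNA per library, per the labels' protocols. The deposited values are raw read counts for each symbol, in whole numbers. Bowtie2, bedtools and mm10 are named in the submitters' processing notes, and the sources used here give no version, annotation, use of strand or handling of duplicates. Rows of symbols that occur more than once (79) stayed in the totals and out of calls.

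Libraries were scaled with TMM in edgeR 4.0.16 (R 4.3.3). Ratios have exact conditional binomial intervals, ratios of ratios exact conditional odds ratio intervals, and counts exact Poisson intervals, computed in SciPy 1.17.1. Reads are not independent molecules, so these cover counting error only. No test across animals was possible with 1 library per group, and no p-value was computed. The calling rule was also run on simulated counts with counting error only, which cannot show how pools or their preparation vary.

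The members and lists were chosen with earlier results of these data known. All 9 members are named. From each other list the rule takes the 2 genes with the highest lower bounds and the 2 with the lowest upper bounds of the ratio, plus Mrgprb2, Mcpt8, Gata2, Il1rl1, Fcer1g, Kitl, F2rl1, Hrh1 and Ltc4s, and the 5 most alike in ratio. The text gives part of these, and other genes it names were chosen after their values were seen. Identifiers and coordinates are from GENCODE M21 (mm10, 1-based). The alternatives were DESeq2 1.42.0 size factors, total counts, upper quartile, scaling on neuron, fibroblast or macrophage lists, totals without haemoglobin, Rn45s and epidermal rows, other filters and thresholds, thinning of the AEW library, and a correction for transcript GC content.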

Additional observations from a re-analysis of the deposited data

How the results depend on the processing

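The count of members called lower stayed within 1.5 times, and their median log2 ratio and the ratio of their summed counts stayed below 0 and 1 within counting error, under DESeq2 size factors, total counts, upper quartile scaling, reduced totals, other filters, 2-fold or stricter intervals, thinning and the GC correction, with 5 to 7 members called lower. Under the same settings 20 to 35 genes of the 5 further lists were called lower, against 30, of which 20 to 30 were shared with those 30. The lowest count, 20 of 63 measured, came with a summed count of at least 100, where 1623 of all 11967 measured genes were lower. At 2-fold 22 of 85 were lower, against 1018 of all 14854 measured genes. The stricter interval left 21 of 85, against 1071 of all 14854. Of the 9 further genes called higher, 4 remained at 2-fold and 4 with the stricter interval, where 1223 and 1327 of all 14854 measured genes were higher. Scaling on marker lists moved them, since it shifts all genes alike: the median of all measured genes became 1.07 with fibroblast, -0.61 with neuron and 1.42 with macrophage markers. With fibroblast scaling 3 members were called lower, the median was -0.27, the summed ratio 0.879 and Mcpt4 turned to 0.12. Of the 85 further genes 3 were lower and 46 higher, against 180 lower and 11259 higher of all 14854 measured genes. With neuron scaling the median was -1.95, the summed ratio 0.275 and Kit turned to -0.41. Of the 85 further genes 52 were lower and 1 higher, against 7193 lower and 709 higher of all 14854 measured genes. With macrophage scaling, chosen after seeing the data, 2 members were called lower, the median turned to 0.078 and the summed ratio to 1.12. On that scale Cma1, Cpa3, Mcpt4 and Fcer1a turned to 0.078, 0.32, 0.47 and 0.10. Of the 85 further genes 1 was lower and 56 higher, against 82 lower and 13005 higher of all 14854 measured genes. A distance of over 3 scaled deviations, also chosen after seeing the data, left 2 members and 1 further gene lower, against 0.491% of all measured genes. The summed ratio was 0.501 without Tpsb2, 0.339 without Kit and 0.560 without both tryptases. No paired analysis was possible because each group has 1 library, and for the same reason no replicate could be left out. Depth limits Ms4a2 and Fcer1a, at 17 and 5 summed counts.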

Other observations

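Neighbours of the receptor gene Ms4a2 were taken by position, within 300 kb on chromosome 19, after the counts had been seen. Of 8 measured Ms4a genes there, 7 were called lower in the AEW library and 1 higher, against 14.9% lower and 17.3% higher among all measured genes. Ms4a6c, expressed by macrophages and monocytes, had 155 counts in the AEW library and 308 in the control library, a ratio of 0.307 (0.252 to 0.374). Ms4a6d had 56 counts in the AEW library and 163 in the control library. Ms4a3, known from granulocyte and monocyte precursors and the next gene along from Ms4a2, had 115 counts in the AEW library and 38 in the control library, a ratio of 1.85 (1.27 to 2.74).

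In the protease cluster of chromosome 14, Cma2, Mcpt1, Mcpt9 and Mcpt2 lie between Cma1 and Mcpt4. Cma2 had 0 counts in the AEW library and 9 in the control library, and the others had 0 counts in both. Beyond Mcpt4 come Mcpt8 and then Ctsg, both called lower. Mcpt8 had 4 counts in the AEW library and 17 in the control library, a ratio of 0.144 (0.0352 to 0.441). Ctsg had 6 counts in the AEW library and 16 in the control library, a ratio of 0.229 (0.0734 to 0.616). Of the granzyme genes that follow, Gzmc had 10 counts in the AEW library and 0 in the control library, and Gzmb had 0 in both.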
